A study of Gallus gallus with 16 samples.

Results

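Cytokines are small secreted or membrane-bound proteins by which cells, above all immune cells, signal to each other through receptors on the cell surface. The genes described here are those whose symbol on the array marks them as an interleukin, a chemokine, a member of the tumour necrosis factor (TNF) superfamily or a receptor of one of these, by the symbol stems IL, CCL, CCR, CXCL, CXCR, TNFSF and TNFRSF. The rule found 82 array features with a single matching symbol, which stand for 81 genes among the 11528 genes named on the array. A further feature carries 2 symbols, TNFRSF14 and SETD2, and was left out. Where a gene had several features the one with the highest mean was taken, which applied to IL4R alone, whose features averaged 7.89 and 5.88. Grouped by symbol, the 81 genes are 20 interleukins, 27 interleukin receptor chains and related proteins, 8 chemokines and 10 chemokine receptors. The rest are 6 TNF superfamily ligands, 9 TNF receptor superfamily members and IL4I1, an amino acid oxidase that bears an IL symbol.

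The RNA came from livers of male broiler chickens at day 21, 4 birds each on diets E, F, H and A, which the labels give by letter alone. The series title names saponins and a blend of essential oils of oregano, thyme, rosemary and star anise as feed supplements. No label ties a letter to a supplement or marks a letter as an unsupplemented control. Diet A therefore serves below only as a common comparator for E, F and H. The 16 samples are separate birds, numbered here 1 to 4 within a diet in the order of deposit, so that a bird number pairs nothing across diets.

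Interleukins act through receptors built from several chains, some of which are shared between ligands, and most of these chains signal through Janus kinases and STAT proteins. The IL-1 and IL-17 families and the TNF receptors signal instead through adaptor proteins towards NF-kappaB. Chemokines bind receptors of the G-protein-coupled kind and direct the movement of leukocytes. In the mammalian liver, hepatocytes carry receptors for IL-6, IL-1 and IL-22, through which the acute phase response is set, and resident macrophages, lymphocytes, stellate cells and bile duct cells are sources or targets of the other members. In avian liver much of this is inferred from mammals, and the roles given below come from mammals unless stated otherwise.

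Each value is a log2 signal of a 1-colour Affymetrix array, so a difference of 1 is a 2-fold difference. A probe's brightness depends on its sequence, so levels of different genes cannot be set against each other, and each gene is compared between birds or with a single mark, the 20th percentile of all 20804 features on all 16 arrays, at 4.31. No measure of background is given with the values, and a level below the mark is not read as absence. The array medians lay between 6.11 and 6.21, and arrays H3 and H4 stood apart, with a mean correlation with the other arrays of 0.948 and 0.946, against 0.966 to 0.976 for the rest. Of 16 measured hepatocyte markers 15 lay above the mark, with ALB at 13.87 and APOA1 at 13.52, and ARG2 below it. The median deviation of the 15 markers above the mark from their means stayed between -0.04 and 0.07 in the 16 birds. Bird medians of the other marker lists below are likewise taken over the markers above the mark. Whole liver was measured, so fewer cells of a type and less RNA per cell cannot be told apart.

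On average 58 of the 81 genes (71.6%) lay above the mark, against 10091 of the 11528 named genes (87.5%) and 80.2% of all features. In every one of the 16 birds 49 genes lay above it, in no bird 13, and the remaining 19 crossed it between birds. The number above the mark in a single bird ran from 55 in F2 to 63 in E1. By role, all 6 TNF superfamily ligands, 8 of 9 TNF receptor superfamily members, 9 of 10 chemokine receptors, 18 of 27 interleukin receptor chains, 5 of 8 chemokines and 11 of 20 interleukins averaged above the mark. The median standard deviation (SD) over the 16 birds was 0.283 for these genes, against 0.290 for all named genes and 0.308 for all features.

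**Figure D1:**
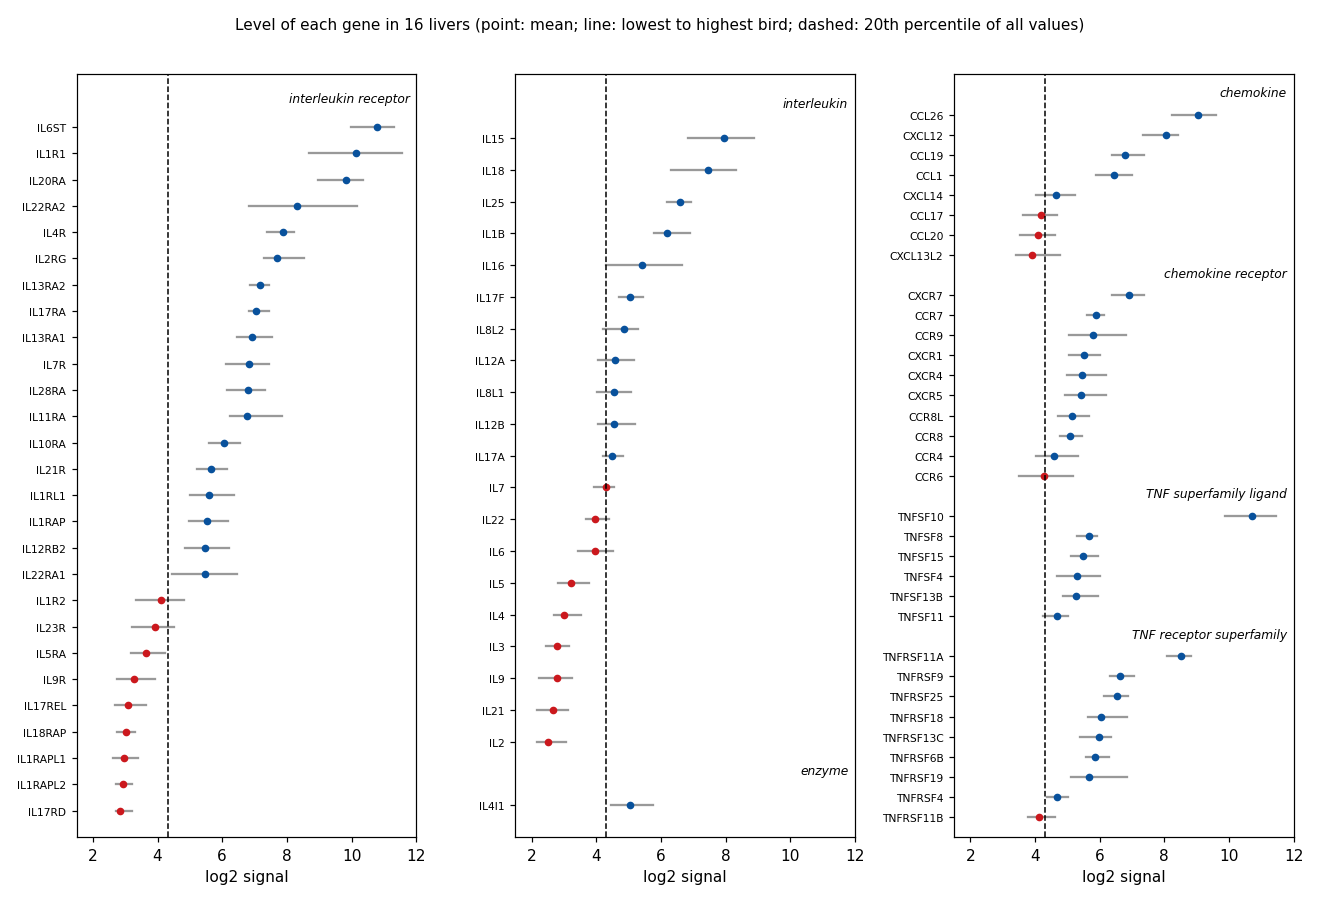
Level of each of the 81 genes on the log2 scale, grouped by role, with the mark at the 20th percentile of all values drawn as a line. The genes run from IL2 at a mean of 2.51 to IL6ST at 10.78, and 58 of them average above the mark at 4.31.

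Among the interleukins, IL15, which sustains natural killer cells and memory T cells, averaged 7.96 and ranged from 6.84 in H3 to 8.89 in H2. IL18, which is cut by caspases to its active form and drives interferon gamma, averaged 7.46 and ranged from 6.32 in H4 to 8.33 in F1. IL25, of the IL-17 family, averaged 6.58 and IL1B, the fever-inducing product of activated macrophages, 6.20. IL16, a ligand of CD4, averaged 5.42. Those just above the mark were IL17A at 4.48, IL12B, the p40 subunit shared by IL-12 and IL-23, at 4.54, and IL8L1, which with IL8L2 makes up a pair of chicken IL-8 genes, at 4.55. Just below it lay IL7, a growth factor of lymphocytes, at 4.30. IL6 averaged 3.96 and IL22 averaged 3.98, each above the mark in some birds only. IL2, IL3, IL4, IL5, IL9 and IL21, mostly products of activated T cells, lay below the mark in all 16 birds. IL2 averaged 2.51, IL21 averaged 2.68, and IL9 and IL3 averaged 2.79.

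Several receptor chains lay far above the mark. IL6ST, the signal chain gp130 shared by IL-6, IL-11 and leukaemia inhibitory factor, averaged 10.78 (range 9.995 to 11.31). IL1R1, the signalling IL-1 receptor, averaged 10.13 and IL20RA, a chain of the receptors for IL-19, IL-20 and IL-24, 9.82. IL4R, the IL-4 and IL-13 receptor chain, averaged 7.89 and IL2RG, the common gamma chain of the receptors for IL-2, IL-4, IL-7, IL-9, IL-15 and IL-21, 7.69. IL1R2, a decoy that takes up IL-1 without signalling, lay below the mark on average at 4.12. Chains below the mark in every bird were IL5RA, IL9R, IL17REL, IL18RAP, IL1RAPL1, IL1RAPL2 and IL17RD, which averaged 2.85.

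The IL-22 system shows a ligand below the mark beside receptors above it. IL22 averaged 3.98, IL22RA1, the chain that gives hepatocytes and epithelia their response to IL-22, averaged 5.46, and IL22RA2, a soluble decoy that takes IL-22 out of circulation, averaged 8.31. IL22RA2 matched no RefSeq gene of the chicken assembly GRCg7b, so its identity rests on the platform symbol alone. IL22RA2 had the widest spread of all the genes, with an SD of 0.84 over the 16 birds. Its values were 6.82, 8.15, 10.18 and 7.96 in diet E, 9.44, 7.81, 8.28 and 8.56 in diet F, 8.0, 7.08, 7.49 and 8.90 in diet H, and 8.41, 8.37, 8.90 and 8.55 in diet A. The lowest and the highest of all 16 birds, E1 and E3, were fed the same diet, and their difference is 10.3-fold. Diet A was narrow, between 8.37 and 8.90, inside the ranges of diets E and F and overlapping that of diet H.

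The genes with a chemokine symbol above the mark were CCL26 (9.03), CXCL12 (8.04), CCL19 (6.78), CCL1 (6.44) and CXCL14 (4.64). The IL-8 genes IL8L1 and IL8L2, also above it, are grouped by symbol with the interleukins. CXCL12, made by stromal cells, holds leukocytes and progenitors through CXCR4, which averaged 5.45, and is taken up by the scavenger CXCR7 (also called ACKR3), which averaged 6.90. CCL19 guides T cells and dendritic cells through CCR7, which averaged 5.88. CCL17 at 4.20, CCL20 at 4.10 and CXCL13L2 at 3.91 averaged below the mark, as did CCR6, the receptor of CCL20, at 4.27. CCR9, which guides lymphocytes to the gut, averaged 5.78 and CXCR1, an IL-8 receptor, 5.52.

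Of the TNF superfamily, TNFSF10, the death ligand TRAIL, averaged 10.70. It ranged 2.97-fold, from 9.88 in A2 to 11.45 in A4, so that both ends of its range lay within diet A. TNFSF8 (CD30 ligand), TNFSF15 (TL1A), TNFSF4 (OX40 ligand), TNFSF13B (BAFF, the B-cell survival factor) and TNFSF11 (RANK ligand) averaged between 4.67 and 5.67. Among the receptors, TNFRSF11A (RANK) averaged 8.52, TNFRSF9 (4-1BB) 6.64, TNFRSF25 (the receptor of TL1A) 6.54, TNFRSF18 (GITR) 6.05 and TNFRSF13C (the BAFF receptor) 5.97. TNFRSF11B, the decoy osteoprotegerin that binds RANK ligand, was the only TNF receptor superfamily member below the mark on average, at 4.14.

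The share of a gene's variance over the 16 birds that lay between diets was largest for CCL19 (54.6%), IL7 (49.2%), IL12B (46.2%) and IL22RA1 (43.1%). These are the highest of 81 genes, part of such a share arises by chance, and the share over all features was not taken. None of them passed limma's F test over the diets, each with an adjusted p of 0.984. After IL22RA2, the largest SDs were those of IL1R1 (0.74), IL18 (0.62), IL15 (0.62), IL22RA1 (0.62), IL16 (0.53), IL7R (0.50) and TNFRSF19 (0.48), among genes above the mark. IL7R, the receptor of IL-7, was high in E2, F2, H2, A1, A2 and A4, at 7.21 or more, and low in H3 and H4, at 6.19 and 6.11.

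**Figure D2:**
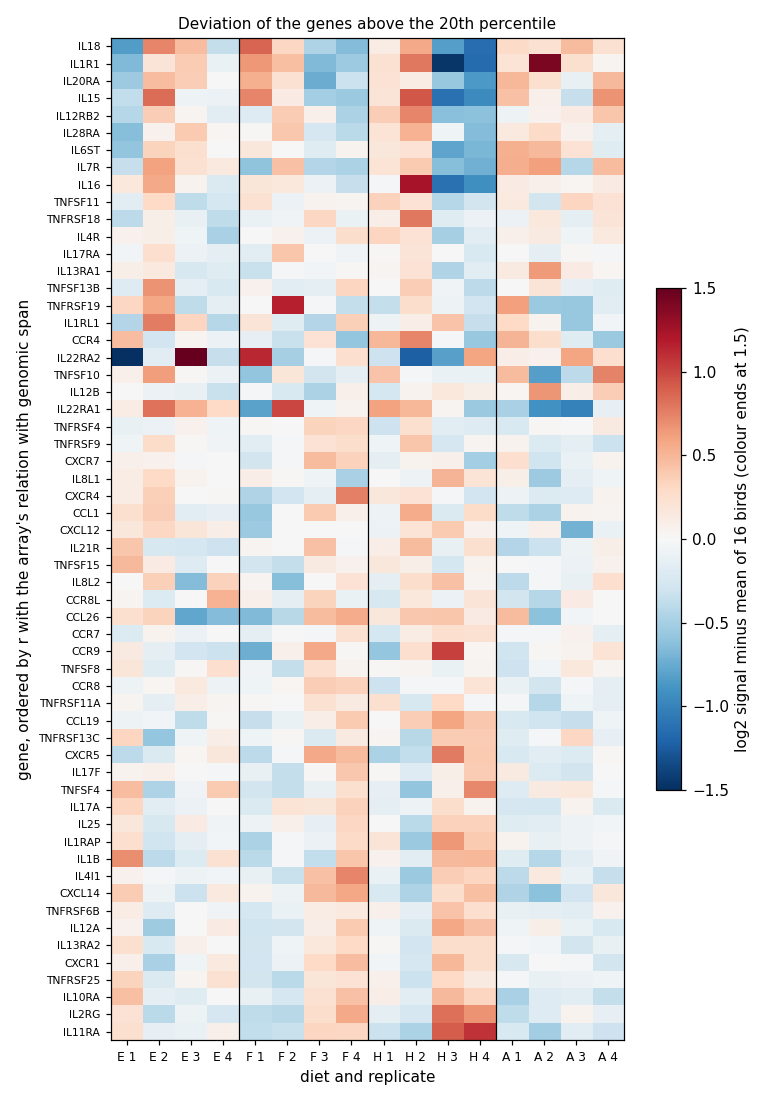
Deviation of each of the 58 genes above the mark from its own mean over 16 birds, on the log2 scale. Birds are columns in the diet order E, F, H, A and genes are rows. Birds H3 and H4 share low values of IL18, IL15 and IL1R1 and high values of IL2RG and IL10RA.

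Much of this variation followed a single measure of the arrays. For each array, Spearman's rho was taken between a gene's deviation on that array and its genomic span, the distance from start to end in the chicken assembly GRCg7b, over 9618 named genes above the mark other than the 81. This measure comes from the same arrays and describes how far long genes are bright relative to short ones. It ran from -0.41 in H4 and -0.40 in H3 to 0.38 in F2 and H2. In diet E it was -0.34, 0.27, 0.18 and -0.06, in diet F 0.32, 0.38, -0.20 and -0.37, in diet H 0.17, 0.38, -0.40 and -0.41, and in diet A 0.24, 0.33, 0.08 and 0.28. Diet A held no array with a negative value, and each other diet held 2.

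A slope on this measure, fitted by limma with the diets in the model and adjusted over all features, passed the adjusted p of 0.05 for 39 of the 81 genes (48.1%), against 56.5% of all features. The slope was positive for 12 of the 81 (14.8%), against 22.4% of all features, and negative for 27 of the 81 (33.3%), against 34.1%. The share of cytokine genes that passed lay below that of the array as a whole. Of the 39 genes, 29 average above the mark and the others below it.

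IL18 went with the measure at Pearson's r = 0.93 and Spearman's rho = 0.79 over the 16 birds. Its levels were 6.62, 8.19, 7.92 and 7.10 in diet E, 8.33, 7.77, 6.99 and 6.81 in diet F, 7.57, 8.03, 6.63 and 6.32 in diet H, and 7.75, 7.69, 7.93 and 7.69 in diet A. Birds E1, F4, H3 and H4, the lowest 4 by the measure, were also the lowest 4 for IL18, below every bird of diet A. IL1R1 (r = 0.90, rho = 0.87), IL20RA (r = 0.89, rho = 0.76) and IL15 (r = 0.87, rho = 0.85) ran the same way. In the opposite direction ran IL11RA, the IL-11 receptor chain (r = -0.91, rho = -0.92), IL2RG (r = -0.91, rho = -0.85) and IL10RA, the ligand-binding chain of the IL-10 receptor (r = -0.89, rho = -0.78). The permutation p of r was 1e-05, the smallest that 100000 resamples can give, for IL18, IL1R1, IL11RA and IL2RG, and 3e-05 for IL20RA and IL10RA and 4e-05 for IL15. The permutation p of rho was 0.00036 for IL18, 3e-05 for IL1R1, 0.00091 for IL20RA, 8e-05 for IL15, 1e-05 for IL11RA, 9e-05 for IL2RG and 0.0006 for IL10RA. With all 20804 features as a single family of relations, the Benjamini-Hochberg adjusted permutation p of these genes was highest for IL15 in r, at 0.000228, and for IL20RA in rho, at 0.00386.

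Without the 2 birds farthest from the median of the measure, H4 and H3, r was 0.89 for IL18, 0.85 for IL1R1, 0.84 for IL20RA, 0.80 for IL15, -0.93 for IL11RA, -0.86 for IL2RG and -0.86 for IL10RA, and all 39 genes that passed kept the sign of r. The sample titles carry numbers of unstated meaning, and they split every diet into 2 birds with a number of at most 25 and 2 with a higher one. Within the lower block of numbers r was 0.88 for IL18 and -0.89 for IL11RA, within the upper block 0.93 and -0.90, and 36 of the 39 genes had the same sign in both blocks. Genes with a positive slope had a median span of 18106 bp (11 genes with a known span) and those with a negative slope 3954 bp (27 genes), against 14150 bp for the others. IL22RA2 (r = 0.17), TNFSF10 (r = 0.15), IL22RA1 (r = 0.13), IL12B (r = 0.14) and CXCL12 (r = -0.25) had slopes that did not pass, with an adjusted p from 0.09 to 0.82 in limma.

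**Figure D3:**
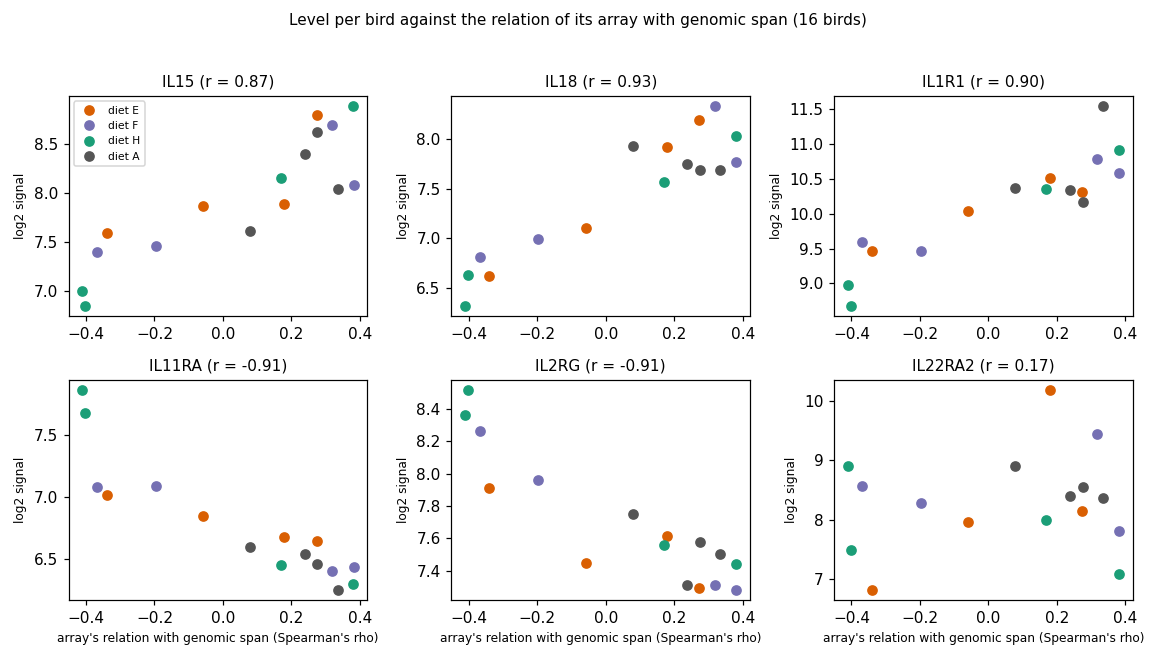
Log2 level per bird (y) against the array's rho with genomic span (x) for IL15, IL18, IL1R1, IL11RA, IL2RG and IL22RA2, 16 birds coloured by diet. IL18 and IL11RA follow the measure closely in opposite directions, and IL22RA2 (r = 0.17) does not.

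In GRCg7b 13 pairs of these genes lie next to each other with at most 2 coding genes between them, and the pairs were compared on the same measure. In 5 pairs both slopes passed in the same direction. They were negative for IL11RA and CCL19, for IL21 and IL2 and for IL17F and IL17A. They were also negative for IL5 and IL4, which have 2 coding genes between them, and positive for IL23R and IL12RB2. Of these genes IL21, IL2, IL5, IL4 and IL23R average below the mark. Among all features 34.1% had a negative slope that passed and 22.4% a positive one. In 2 pairs a single slope passed, that of IL1R1, which lies between IL1R2 and IL1RL1. In 6 pairs no slope passed, namely IL4R and IL21R (r = 0.45 and r = -0.28), IL21R and IL9R, CCR8 and CCR4, CCL1 and CCL26, TNFSF15 and TNFSF8, and IL8L1 and IL8L2. Whether probes of near-identical neighbours such as IL8L1 and IL8L2 bind each other's transcripts was not tested.

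Diet E was then compared with diet A. None of the 81 genes and 0% of all features passed an adjusted p of 0.05 in limma's moderated test over all 20804 features. At an unadjusted p under 0.05 there were 3 of the 81 (3.7%), against 2.03% of all features, and the values of 5 did not overlap between the diets, against 2.7% of all features. These 5 were IL22RA1, CXCL12, IL11RA and IL5, higher in diet E, against 1.49% of all features, and IL12B, lower in diet E, against 1.2%. IL5 lies below the mark in every bird, and its slope on the arrays' rho with genomic span passed as negative. Across the 81 genes 53 were higher in diet E, with a median difference of 0.06, against 53.8% and 0.02 for all features.

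IL22RA1 gave the largest difference, at 5.57, 6.27, 5.99 and 5.77 in diet E and 4.97, 4.55, 4.45 and 5.34 in diet A. Every diet E bird lay above every diet A bird. The difference was 1.07 ± 0.33 (SE, as for all differences below), or 2.10-fold, with an adjusted p of 0.9997 in limma. It was 1.16 in the lower and 0.98 in the upper block of title numbers. IL22RA1 is a gene of epithelial cells in mammals. Of the 7 measured markers of bile duct epithelium, 6 lie above the mark and CFTR below it. The bird medians of these 6 were 0.07 to 0.59 in diet E, against -0.27 to -0.14 in diet A. All 7 markers were higher in diet E. Their part in the difference of IL22RA1 was not tested.

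IL11RA was at 7.02, 6.65, 6.68 and 6.85 in diet E and 6.54, 6.25, 6.60 and 6.46 in diet A, a difference of 0.34 ± 0.30. It is among the genes that follow the arrays' rho with genomic span, with a slope of -1.35 per unit of rho. That rho was below 0 in 2 birds of diet E and none of diet A. The difference with the measure as a covariate is not given here, so 0.34 includes any part that goes with it.

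IL12B was at 4.53, 4.45, 4.42 and 4.21 in diet E and 4.57, 5.20, 4.63 and 4.91 in diet A, a difference of -0.43 ± 0.17. The 4 birds of diet E lie close to the mark, with E4 below it, and A2 and A4 are the highest of the 8 birds. CXCL12 was at 8.21, 8.35, 8.22 and 8.13 in diet E and 7.97, 8.11, 7.33 and 7.94 in diet A, a difference of 0.39 ± 0.18 that was 0.22 without A3, the lowest bird, 0.24 in the lower title block and 0.55 in the upper. The 11 measured markers of stellate cells and fibroblasts, cells that make CXCL12, all lay above the mark and had bird medians of -0.01 to 0.20 in diet E and -0.41 to -0.06 in diet A, and their part in this was not tested. IL10RA differed by 0.34 ± 0.19, and by 0.20 without E1 and 0.17 both in the upper title block and with the array's rho with genomic span as a covariate.

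In diet F against diet A, limma again called none of the 81 genes and 0% of all features. At an unadjusted p under 0.05 there were 3 (3.7%), against 1.68% of all features, and 3 did not overlap between the diets, against 1.84%. Of these, TNFRSF11A was higher in diet F, against 1.18% of all features, and IL13RA1 and IL4 were lower, against 0.663%. IL4 lies below the mark in every bird, and its slope on the arrays' rho with genomic span passed as negative. Of the 81 genes 48 were higher in diet F, with a median difference of 0.04, against 55.6% and 0.03 for all features. The comparisons of E, F and H with A share the 4 birds of diet A.

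IL12B was at 4.53, 4.31, 4.06 and 4.62 in diet F, against 4.57, 5.20, 4.63 and 4.91 in diet A, a difference of -0.45 ± 0.17 with an adjusted p of 0.993 in limma. CXCL14, a chemokine of epithelia and stroma, was at 4.69, 4.56, 5.12 and 5.22 in diet F, against 4.19, 4.02, 4.35 and 4.80 in diet A. The CXCL14 groups overlapped through A4, and the difference was 0.56 ± 0.24, or 0.37 with the array's rho with genomic span as a covariate. IL22RA1 was at 4.66, 6.47, 5.40 and 5.52 in diet F, a difference from diet A of 0.68 ± 0.33, and of 0.37 without F2. The 6 bile duct markers above the mark had bird medians of -0.32 to 0.08 in diet F, with -0.06 in F2. Of all 7 measured, 4 were higher in diet F than in diet A. CCR8, a receptor of CCL1 on T cells, differed by 0.30 ± 0.15, and by 0.16 in the lower title block. IL7, which lies at the mark, was lower in diet F by 0.28 on the log2 scale.

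In diet H against diet A, none of the 81 genes passed in limma and 0% of all features did. At an unadjusted p under 0.05 there were 3 of the 81 (3.7%), against 8.21% of all features, and 2 did not overlap between the diets, against 2.14% of all features. Both, CCL19 and IL10RA, were higher in diet H, against 1.27% of all features, and none was lower, against 0.875%. Of the 81 genes 61 were higher in diet H, with a median difference of 0.13, against 56.4% and 0.05 for all features. By role 7 of 8 chemokines, 9 of 10 chemokine receptors, 8 of 9 TNF receptor superfamily members and 4 of 6 TNF superfamily ligands were higher in diet H. So were 15 of 20 interleukins and 17 of 27 interleukin receptor chains. Against the same birds of diet A, 7 of 8 chemokines were also higher in diet E and 7 of 8 in diet F. Of the chemokine receptors 8 of 10 were higher in diet E and 7 of 10 in diet F. Of the TNF receptor superfamily it was 5 of 9 and 6 of 9. Of the 4 birds of diet H, 2 are H3 and H4, which stand apart from all others and have the lowest rho with genomic span, -0.40 and -0.41. The slope on that rho passed as negative for 27 of the 81 genes and as positive for 12. The counts of higher genes were not taken with the measure as a covariate, so they include any part that goes with it.

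CCL19 was at 6.78, 7.14, 7.37 and 7.18 in diet H, against 6.55, 6.48, 6.44 and 6.71 in diet A. Every diet H bird lay above every diet A bird, by 0.57 ± 0.17 on average, or 1.49-fold, with an adjusted p of 0.521 in limma. In the lower title block, which holds H1 and H2, the difference was 0.45, and in the upper, with H3 and H4, 0.70. It was 0.42 without H3 and H4 and 0.44 with the array's rho with genomic span as a covariate. IL10RA was at 6.17, 5.91, 6.56 and 6.39 in diet H, against 5.58, 5.87, 5.91 and 5.71 in diet A. The lowest diet H bird, H2 at 5.91426, lay barely above the highest diet A bird, A3 at 5.91423. IL10RA counts as not overlapping by this margin alone. The difference of 0.49 ± 0.19 was 0.28 without H3 and H4, 0.32 in the lower title block and 0.26 with the covariate. CCL19 draws T cells and IL10RA is carried by leukocytes. Of 16 measured T cell and NK cell markers 15 lie above the mark and CTLA4 below it. The bird medians of these 15 were -0.04, 0.44, 0.16 and 0.07 in diet H, against -0.35 to -0.06 in diet A. Of the 16, 14 were higher in diet H than in diet A, and 14 were also higher in diet F than in diet A. In diet H, 5 of 11 macrophage and Kupffer cell markers, 7 of 10 B cell markers and 5 of 7 heterophil and granulocyte markers were higher than in diet A. The part of these markers in the differences of CCL19 and IL10RA was not tested.

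IL22RA1 was at 6.06, 5.95, 5.5 and 4.91 in diet H, a difference from diet A of 0.78 ± 0.33. Here H1, H2 and H3 were above every diet A bird and H4 was not, and the difference was 1.18 without H3 and H4, 1.25 in the lower title block and 0.31 in the upper. The 6 bile duct markers above the mark had bird medians of -0.17 to 0.26 in diet H. Of all 7 measured, 6 were higher in diet H than in diet A, and their part was not tested. IL6ST was at 10.95, 10.9985, 9.995 and 10.09 in diet H, against 11.31, 11.27, 10.998 and 10.60 in diet A, a difference of -0.53 ± 0.26. The low values were those of H3 and H4, without which the difference was -0.07. It was -0.31 in the lower title block and -0.26 with the array's rho with genomic span as a covariate.

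**Figure D4:**
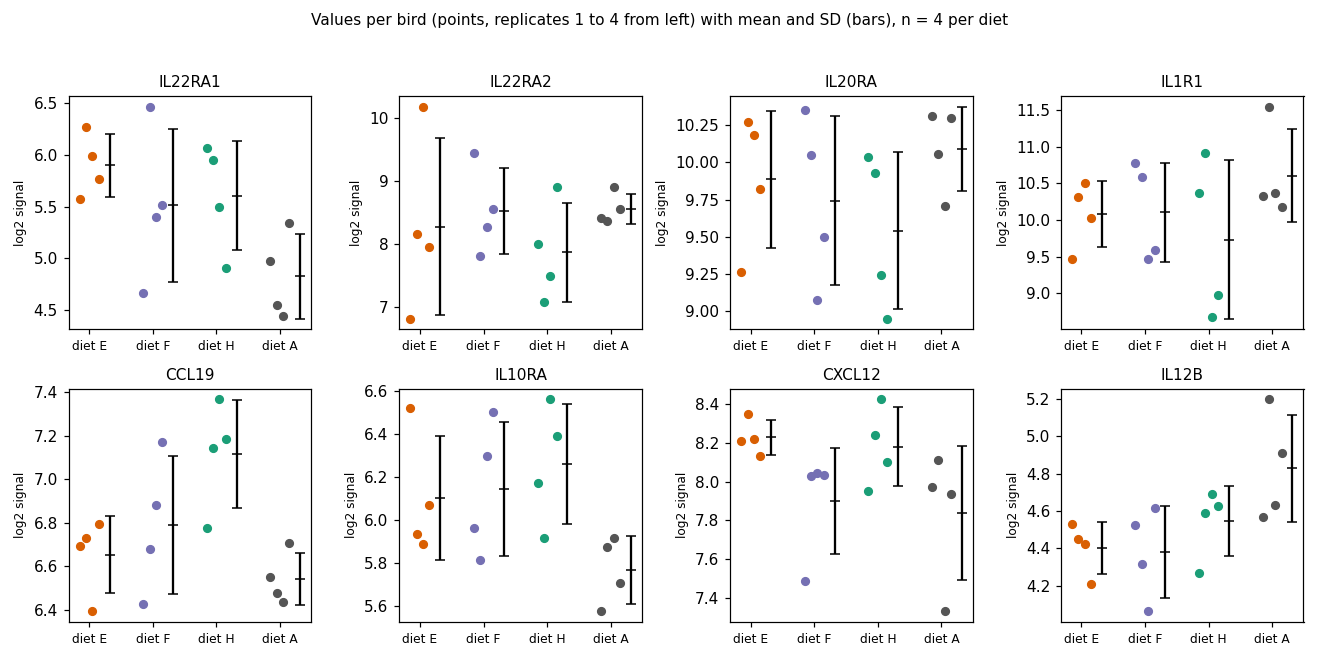
Log2 level per bird (points) with the diet mean and SD, in the diet order E, F, H, A. IL22RA1, CCL19, IL10RA, CXCL12 and IL12B are among the genes with the smallest p between diets. IL22RA2, IL20RA and IL1R1 are drawn as well and are not among these. IL22RA1 is higher in all 4 birds of diet E than in any bird of diet A, and CCL19 is higher in all 4 birds of diet H than in any bird of diet A.

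In diet E against diet F, limma called none of the 81 genes and 0% of all features. At an unadjusted p under 0.05 there was 1 gene, CCR6, against 1.35% of all features, and 3 did not overlap between the diets, against 1.15%. All 3 were higher in diet E, against 0.538% of all features, and none was lower, against 0.615%. Of the 81 genes 41 were higher in diet E, against 49.2% of all features. CCR6, which averages below the mark, was at 4.40, 5.19, 4.40 and 4.13 in diet E and 4.09, 4.06, 3.99 and 3.51 in diet F, a difference of 0.62 ± 0.25. Its slope on the arrays' rho with genomic span passed as positive. The difference was 0.64 with that rho as a covariate, 0.72 in the lower title block and 0.52 in the upper. CXCL12 was at 8.21, 8.35, 8.22 and 8.13 in diet E and 7.49, 8.03, 8.04 and 8.03 in diet F, a difference of 0.33 ± 0.18 that was 0.19 without F1, 0.52 in the lower title block and 0.14 in the upper. IL7 was the other gene without overlap, higher in diet E by 0.27. TNFRSF4 differed by -0.21, by -0.11 in the lower title block and by -0.32 in the upper. IL7R differed by 0.43, by 0.28 without E2, by 0.67 without F2 and by 0.22 in the lower title block. TNFSF15 differed by 0.22, by 0.09 without E1, by 0.13 without F2, by 0.62 in the lower title block and by -0.19 in the upper. Each of these had an adjusted p of 0.99998 in limma.

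In diet H against diet E, limma called none of the 81 genes and 0% of all features. At an unadjusted p under 0.05 there was 1 (CCL19), against 2.72% of all features, and none failed to overlap, against 1.03% of all features, 0.63% higher and 0.404% lower. Of the 81 genes 45 were higher in diet H, against 51.9% of all features. CCL19 was at 6.78, 7.14, 7.37 and 7.18 in diet H and 6.70, 6.73, 6.39 and 6.80 in diet E, a difference of 0.46 ± 0.17 (adjusted p = 0.942 in limma) that was 0.31 without H3 and H4 and 0.25 in the lower title block. The 15 T cell and NK cell markers above the mark had bird medians of -0.04 to 0.44 in diet H and -0.16 to -0.01 in diet E, and their part was not tested. TNFRSF18, a co-stimulatory receptor of T cells, differed by 0.35 ± 0.20, by 0.14 without H2, by 0.64 without H3 and H4, by 0.60 in the lower title block and by 0.10 in the upper. CCL26 differed by 0.49, by 0.30 without E3, by -0.0068 in the lower title block and by 0.99 in the upper. IL2RG differed by 0.40, by -0.067 without H3 and H4, by 0.22 without H3, by -0.10 in the lower title block and by 0.91 in the upper.

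In diet H against diet F, limma called none of the 81 genes and 0% of all features. At an unadjusted p under 0.05 there was 1, CCR6, against 2.6% of all features, and the same gene alone did not overlap, against 1.14%. It was higher in diet H, against 0.495% of all features, and none was lower, against 0.644%. Of the 81 genes 54 were higher in diet H, against 51% of all features. CCR6 was at 4.87, 4.82, 4.12 and 4.22 in diet H and 4.09, 4.06, 3.99 and 3.51 in diet F, a difference of 0.60 ± 0.25. It was 0.93 without H3 and H4, 0.77 in the lower title block and 0.42 in the upper. With the array's rho with genomic span as a covariate it was 0.68. CCL19 differed by 0.33 ± 0.17 (adjusted p = 0.971 in limma), by 0.17 without H3 and H4 and by 0.21 without F1. TNFRSF4, the OX40 receptor of activated T cells, differed by -0.27 ± 0.15, by -0.05 in the lower title block and by -0.50 in the upper. CXCL12 differed by 0.28, and by 0.15 without F1. IL8L1 differed by 0.27, by 0.07 without H3 and H4, by 0.14 without F4, by 0.15 without H3, by -0.10 in the lower title block and by 0.63 in the upper.

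**Figure D5:**
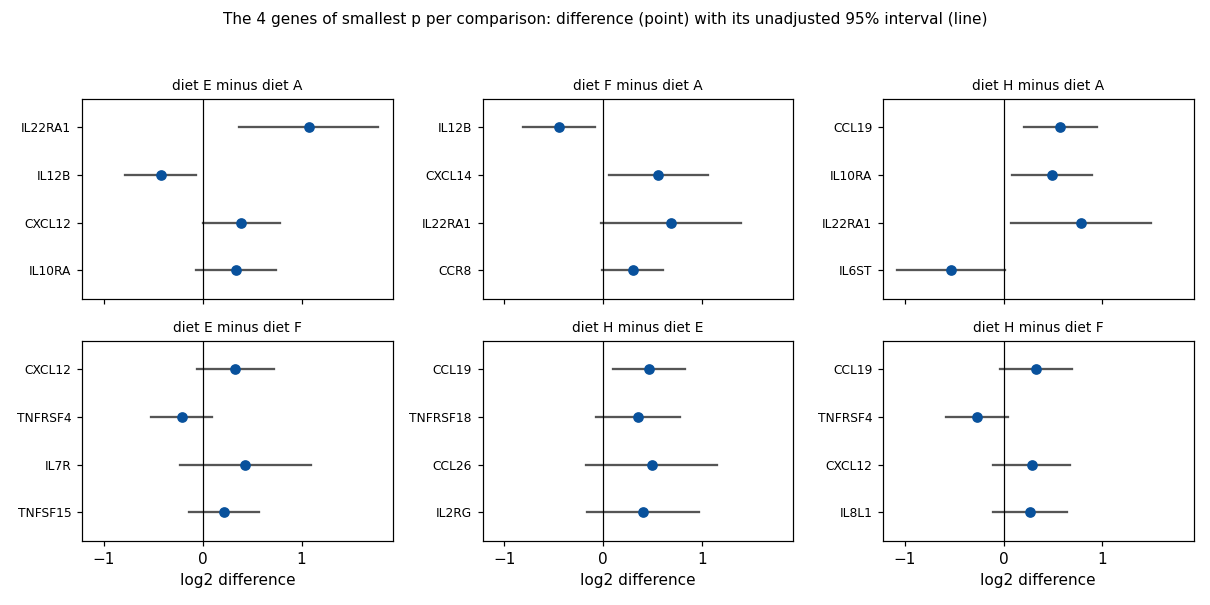
Difference between diets (log2) in each of the 6 comparisons, with the unadjusted 95% interval, for the 4 genes with the smallest p. Only genes that average above the mark were taken, so CCR6 is not drawn. IL22RA1 in diet E minus diet A lies at 1.07, and CCL19 in diet H minus diet A at 0.57.

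Over the 4 diets together the moderated F test called none of the 81 genes and 0% of all features, with 2 genes at an unadjusted p under 0.05, against 2.13% of all features. Among the genes that average above the mark, the smallest p, in order, were those of CCL19, IL22RA1, IL12B, IL10RA, CXCL12 and CXCL14. Each had an adjusted p of 0.984 in limma. CCR6 and IL7, which average below the mark, are left out of this order. CCR6 had a smaller p than IL12B, and IL7 a smaller p than CXCL14. The median 95% interval of a difference between 2 diets was 0.46 wide to either side.

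The wider cytokine pathway was read from lists made with earlier results known. Of 50 measured genes of cytokine signal transduction (Janus kinases, STATs, SOCS proteins, adaptors and NF-kappaB) 0 passed in any comparison in limma. There were 0 at an unadjusted p under 0.05 in E against A, 0 in F against A and 3 in H against A, against 2.03%, 1.68% and 8.21% of all features. In diet H 13 of the 50 were higher than in diet A, against 56.4% of all features. The median difference from diet A was -0.09 for E, -0.12 for F and -0.21 for H. The bird medians of this list were 0.06, 0.40, -0.44 and -0.51 in diet H, against 0.03, 0.16, 0.02 and 0.13 in diet A. H3 and H4 were the lowest of all 16 birds, and H2 the highest. The medians were -0.15, 0.21, 0.04 and -0.06 in diet E and 0.15, 0.15, -0.10 and -0.18 in diet F. The arrays' rho with genomic span was 0.17, 0.38, -0.40 and -0.41 in diet H and 0.24, 0.33, 0.08 and 0.28 in diet A. In diet E it was -0.34, 0.27, 0.18 and -0.06, and in diet F 0.32, 0.38, -0.20 and -0.37. Its part in the differences of this list was not tested, and they include any part that goes with it. NFKBIA, the NF-kappaB inhibitor that is itself induced by NF-kappaB, differed from diet A by 0.45 for E, by 0.42 for F and by 0.72 ± 0.22 for H, and SOCS1, a feedback inhibitor of Janus kinases, by 0.55 ± 0.23 for H. Of 35 other cytokine and receptor genes 0 passed in limma, with 5 at an unadjusted p under 0.05 in H against A, 3 in E against A and 0 in F against A, set beside 8.21%, 2.03% and 1.68% of all features. LIFR, the leukaemia inhibitory factor receptor that pairs with IL6ST, differed by -0.64 ± 0.22 and IFNGR1, the interferon gamma receptor chain, by -0.51 ± 0.19 in diet H against diet A. Of 14 measured genes on the list of acute phase proteins 0 passed in limma. The list was not sorted by which proteins rise and which fall in the acute phase response. The sign of a difference is therefore not read as a stronger or weaker response. At an unadjusted p under 0.05 there was 1, ITIH2 in H against A, where 8.21% of all features had such a p. ITIH2 differed by -0.41 ± 0.19 and FGG by -0.29 ± 0.15 in diet H against diet A, and ORM1 by 0.23 in diet E against diet A. For LIFR, IFNGR1, ITIH2 and FGG the differences were not taken without H3 and H4 or with the arrays' rho as a covariate. They include any part that goes with either.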

How the data were processed

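Liver RNA of 16 birds was measured on 1-colour Affymetrix arrays, 4 arrays per diet. The authors deposited log2 signals of 20804 features per array. GCOS 1.1.1 is the software named, per the submitters' processing notes, and how background was corrected and probes summarized and normalized is not given in the sources used here. Precision is limited by the number of arrays. Gene symbols came from the platform annotation, and 77 of the 81 genes matched a RefSeq table of assembly GRCg7b, used for names, neighbours and genomic span alone. The array's genome build is not given, so no coordinates are printed.

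Diets were compared with limma 3.58.1 in R 4.3.3, with a mean per diet fitted on all 16 arrays, empirical Bayes moderation and two-sided tests, and p-values adjusted by Benjamini-Hochberg over all features for each of 6 comparisons and the F test. The script was tested on simulated data. Permutation tests used 100000 resamples. Named genes were the highest by mean, overall and by role, those of largest SD, those nearest the mark, the lowest by mean, and those of smallest p above the mark per comparison. The alternatives were quantile normalization, a filter at the mark, a trended robust prior, averaging of features, other percentiles as the mark, the title number block as a covariate, each bird left out and H3 and H4 left out. After the data were seen, each title block alone and the relation with genomic span as a covariate were added. The genes and lists were chosen with earlier results of these data known.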

Additional observations from a re-analysis of the deposited data

Results flagged for a closer look

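Within a diet, the lowest or highest of the 4 birds was set against its nearest neighbour for 21 of the genes, 84 groups in all, and 5 birds lay far from the other 3 relative to the group's whole range. Chance gives this in about 1 group in 20. CXCL12 was at 7.49 in F1, against 8.03 to 8.04 in the other birds of diet F. IL7R was at 7.26 in F2, against 6.22 to 6.38 in the others of diet F, and at 6.39 in A3, against 7.29 to 7.44 in the others of diet A. TNFRSF18 was at 6.36 in F3, against 5.95 to 6.0 in the others of diet F. IL1R1 was at 11.55 in A2, against 10.2 to 10.4 in the others of diet A.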

How the results depend on the processing

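No paired analysis was possible because the labels give no replicate numbers shared between diets. In limma, 0 of the 81 genes passed in any comparison under every alternative but the upper title block alone. With its 2 birds per diet, of which those of diet H are H3 and H4, 16 of the genes (5472 of all features) passed in diet H against diet A, 10 (4008 features) in diet H against diet E, and 5 (1812 features) in the F test, where the cause was not tested. With the 40th percentile as the mark, 34 of the 81 genes lay above it. The alternatives gave 750 values, for the 24 differences named and for the F test of the genes named with it. Of these 740 kept their side of the threshold and, where they were differences, their direction. In the upper block alone CCL19 (0.70), IL10RA (0.66) and IL6ST (-0.75) passed in diet H against diet A, and CCL26 (0.99) and IL2RG (0.91) in diet H against diet E. The sign turned for TNFSF15 in diet E against diet F (-0.19 in the upper block), CCL26 in diet H against diet E (-0.0068 in the lower block), IL2RG in diet H against diet E (-0.067 without H3 and H4, -0.10 in the lower block) and IL8L1 in diet H against diet F (-0.10 in the lower block), and the cause was not tested. How far a signal lies above background is not known, which limits what can be said of genes near the mark.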

Other observations

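Other cytokine genes outside the symbol rule differed between diets without passing in limma. CX3CL1, the membrane-bound chemokine fractalkine, averaged 7.46 in diet E and 6.56 in diet A, a difference of 0.90 ± 0.38 (SE, adjusted p = 0.9997 in limma). The largest difference of the 35 genes measured, in the opposite direction, was that of ACKR4, a scavenger receptor of CCL19 and CCL21, named here after its values were seen. ACKR4 averaged 6.80 in diet E (6.03 to 8.33) and 7.99 in diet A (7.37 to 8.61), a difference of -1.19 ± 0.56, and the diets overlapped. On this list 19 genes were higher and 16 lower in diet E than in diet A. TGFB2, a growth factor of the TGF-beta family, averaged 5.77 in diet E and 5.40 in diet A, a difference of 0.37 ± 0.14, and 5.30 in diet H against 5.77 in diet E, a difference of -0.48 ± 0.14 (adjusted p = 0.942 in limma). IFNG, LEPR, KIT and EDAR averaged below the mark, and the other 31 of the 35 genes on this list above it.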
